A study of Danio rerio with 7 samples.

Results

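Proliferative melanoma cells are the cells that the deposited annotation assigns to the proliferative tumor state, and they were 333 of the 2678 melanoma cells and of the 3968 cells in the single-cell table. That is 12.4% of the melanoma cells (exact Clopper-Pearson 95% interval 11.2 to 13.7%, which covers counting error only). The other melanoma states were melanocytic (579 cells), stressed (853 cells), invasive (333 cells) and inflammatory (580 cells), and the tumor microenvironment (TME) held 1290 cells. All cells came from 1 droplet library of dissociated tumor and adjacent skin, pooled from male and female zebrafish. The adult fish were casper;mitfa:BRAFV600E;p53-/- animals, so that mitfa drove the human oncogene in pigment cells. Their melanomas were started by TEAZ, the electroporation of plasmids into adult skin, with MiniCoopR-tdT, which restores mitfa and labels the cells red, mitfa:Cas9, guides against ptena and ptenb, and Tol2. The second data set was bulk RNA-seq of sorted tdTomato+ cells from such melanomas, with 3 libraries that also received a non-targeting guide (sgNT, genotype WT in the labels) and 3 that received a guide against dgat1a (sgDGAT1a, DGAT1a knockout in the labels). The guides act cell by cell, and the study describes such tumors as mixtures of wildtype and knockout cells.

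Cells that divide pass through S phase, in which DNA is copied and new chromatin is assembled, and then through G2 and mitosis (G2/M), in which chromosomes condense, the nuclear envelope opens and the spindle separates the copies. The transcripts for these steps are made in waves, so that replication genes and mitotic genes mark different cells of one dividing population. In melanoma, a dividing state is usually set beside differentiated, stress-like and invasive states of the same lineage.

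The states are clusters of cells from 1 library, made from these same genes, so every comparison between them is a description with no test and no replicate. The deposited values are counts that the authors corrected to a common depth, given here as mean corrected counts per cell. A log2 ratio compares the share of all corrected counts that a gene took in proliferative cells with its share in another group, and 2-fold was the limit for calling a gene higher or lower.

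The proliferative cells were the deepest group before that correction. Their median was 15141 raw unique molecular identifiers (UMIs, each marking a captured transcript) per cell, with quartiles of 9126 and 22456. The medians of the other groups were 10341 in stressed, 9768 in melanocytic, 8546 in inflammatory, 7979 in invasive and 5165.5 in TME cells. The median number of genes detected was 3153 in proliferative cells and between 1325 and 2327 in the other groups. The ranges of single cells overlapped widely, and corrected totals differed little, with a median of 8023 in proliferative cells and 7328.5 to 8071 elsewhere. The median mitochondrial share was 0.972% of UMIs, against 1.03 to 1.94% in the other groups. Because depth moved with the state, ratios were also computed from cells with 8000 to 20000 raw UMIs in every group, called matched depth below, which kept 156 proliferative cells.

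**Figure D1:**
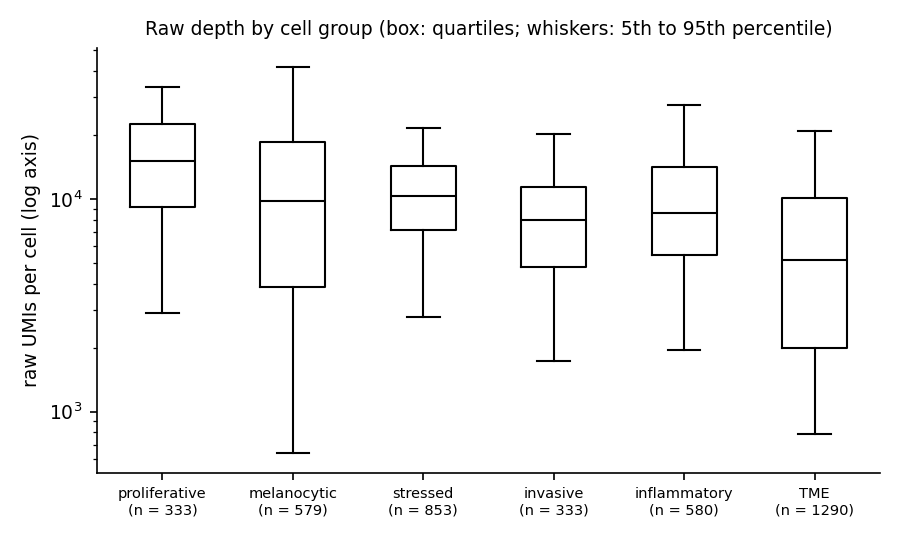
Raw UMIs per cell (log axis) in each of the 6 groups, with the box at the quartiles, the line at the median and whiskers at the 5th and 95th percentiles. The proliferative median of 15141 lies above the other 5 medians, while the ranges overlap.

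The markers that name the state were present. The nucleosome-binding protein gene hmgn2 averaged 52.4 corrected counts per proliferative cell, against 4.8 in melanocytic, 4.08 in stressed, 10.6 in invasive, 7.63 in inflammatory and 4.13 in TME cells. The mitotic kinase gene cdk1 averaged 3.13 against 0.0117 to 0.045. The replication clamp gene pcna averaged 5.52 against 0.225 to 0.674. The gene of the DNA-untangling enzyme top2a averaged 2.17 against 0.00352 to 0.045. All 4 were higher than in each other group, and hmgn2 was the one found everywhere: counting only cells of 2000 or more raw UMIs, it was found in all 324 proliferative cells and in 75.4 to 90.6% of cells of the other groups. The markers of division itself were above 0 in about as many cells as not, with top2a in 44.8% of the proliferative cells (exact interval 39.3 to 50.3%), pcna in 53.4% (47.8 to 58.9%) and cdk1 in 54.3% (48.7 to 59.8%). In the other groups top2a was above 0 in 0.36 to 2.18% of cells and pcna in 10.9 to 19.5%. At matched depth the proliferative shares were 42.3% for top2a, 49.4% for pcna and 52.6% for cdk1.

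Melanoma lineage genes were present as well. The neural crest and melanocyte regulator sox10 averaged 2.71 corrected counts per proliferative cell against 2.75 to 3.55 in the other melanoma states and 0.442 in TME cells. The zebrafish neural crest gene crestin averaged 5.95, against 0.754 in TME cells. The melanocyte master regulator mitfa averaged 2.24, below its 6.17 in stressed and 5.06 in melanocytic cells and above its 0.703 in inflammatory cells. Defining genes of keratinocytes, macrophages and fibroblasts were near 0. The keratinocyte gene krt5 averaged 0.0601 against 27.6 in TME cells. The macrophage gene mpeg1.1 averaged 0.003 against 0.845, and the collagen gene col1a2 averaged 0.048 against 10.0. The summed level of the 5 measured macrophage markers was 0.601 per proliferative cell against 58.0 per TME cell, and that of the 5 measured keratinocyte markers was 2.54 against 44.5, most of it the adhesion gene cdh1, which other melanoma states also expressed. The 4 measured T cell markers summed to 0.0991 per proliferative cell, against 0.188 per TME cell and 0 to 0.00518 in the other melanoma states. The median proliferative cell had 0 T cell and 0 macrophage marker counts, but the highest cells reached 33 and 44. The highest cell for T cell markers held the whole T cell sum of the state, so that mean is not a trait of the state.

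Across all 11715 genes with at least 100 corrected counts, 433 were at least 2-fold higher in proliferative cells than in each of the 5 other groups, which is 3.7% of the genes tested. Of these, 142 belonged to the cell cycle lists, in which 148 genes were tested, and 291 lay outside them. The lists are not complete, so genes outside them can also act in cell division, as some named below do. A gene low elsewhere can reach 100 corrected counts through the proliferative cells alone. The shares of each list given below can therefore be raised by this filter. It kept 91 of 114 G2/M genes, 57 of 69 S phase genes and 33 of 63 DNA repair genes. In the other direction 86 genes, or 0.734%, were at least 2-fold lower than in each other group. Pair by pair, 1434 genes were higher and 684 (5.84%) lower than in stressed cells, 1701 (14.5%) and 1400 (12%) against invasive cells, 2319 (19.8%) and 923 (7.88%) against melanocytic cells, 2540 (21.7%) and 1317 (11.2%) against inflammatory cells, and 4999 (42.7%) and 2246 (19.2%) against TME cells. The median gene was itself shifted, by 0.08 on the log2 scale against stressed, 0.04 against invasive, 0.34 against melanocytic, 0.33 against inflammatory and 0.75 against TME cells. At matched depth 358 genes were higher than in each other group, 337 of them among the 433, whereas only 34 of the 86 lower genes remained. The higher genes are therefore the better measured side of this comparison.

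Outside the cell cycle lists the profile of the proliferative cells was most like that of the stressed cells. Over 6334 genes with at least 400 corrected counts, the log2 shares correlated across genes with Pearson's r of 0.927 for stressed, 0.893 for melanocytic, 0.870 for invasive, 0.861 for inflammatory and 0.337 for TME cells. These are descriptions across genes of 1 library, and genes are not independent replicates. The stressed cells were also the largest melanoma group and, after the proliferative cells, the deepest. The part of group size and depth in this order was not tested.

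Genes of mitosis set the proliferative cells apart most. Of 91 G2/M genes tested, 87 were at least 2-fold higher than in each other group, with a median log2 ratio of 6.50 against stressed, 5.89 against invasive, 5.41 against inflammatory, 5.32 against melanocytic and 5.13 against TME cells. The mitotic cyclin gene ccna2 averaged 1.3 against 0 to 0.0209, and spdl1, which acts at the kinetochore, averaged 0.661 against 0 to 0.00388. The lowest of the list was the cyclin F gene ccnf, at 0.0931 against 0.0294 to 0.0741. Of 57 S phase genes tested, 55 were at least 2-fold higher than in each other group, with medians from 2.12 against melanocytic to 3.89 against invasive cells. The ribonucleotide reductase subunit gene rrm2, needed to make the building blocks of DNA, averaged 2.41 against 0.027 to 0.168, and the chromatin assembly genes chaf1b and asf1ba averaged 0.330 against 0.00586 to 0.0466 and 0.517 against 0.00901 to 0.0397. The replication fork gene timeless was the weakest, at 0.285 against 0.242 in melanocytic cells. The S phase genes were thus closest between proliferative and melanocytic cells.

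Outside the cell cycle lists, the gene with the largest ratio, si:ch211-69g19.2, averaged 1.53 against 0 to 0.0116. RefSeq gives it the symbol cdca3, a cell division gene, so it lies outside those lists by name only. The same holds for others of these genes, such as cenpx and ube2s below, so this set is not separate from cell division. The microtubule-destabilizing protein gene stmn1a averaged 7.05 against 0.135 to 0.516, and its smallest log2 ratio was 3.71 over all cells and 3.08 at matched depth. It was above 0 in 81.2% of proliferative cells (exact interval 76.5 to 85.3%) and in 7.05 to 16.9% of cells of the other groups. The chromatin protein gene si:ch73-281n10.2, named hmgn1a in RefSeq, averaged 11.2 against 0.557 to 1.35. The chromatin protein gene dek averaged 1.29 against 0.0876 to 0.135, and lbr, which ties chromatin to the inner nuclear membrane, averaged 1.26 against 0.0587 to 0.172. The histone chaperone gene nasp averaged 1.46 against 0.101 to 0.257 and the mismatch repair gene msh6 averaged 0.568 against 0.045 to 0.102. The gene ube2s, for a ubiquitin-conjugating enzyme of the anaphase-promoting complex, averaged 0.607 against 0.0466 to 0.0841. The centromere gene cenpx averaged 2.29 against 0.109 to 0.311, and mxd3, of the family of MAX-binding proteins, averaged 0.658 against 0.0178 to 0.128. The histone H4 copies hist1h4l.12, hist1h4l.7 and hist1h4l.17 averaged 3.84, 3.22 and 1.22, against 0.0294 to 0.227, 0.0541 to 0.195 and 0.006 to 0.0473. Copies of histone genes are nearly identical, so the division of reads among them is uncertain. Other genes that the rule named were si:ch211-266i6.3, zgc:110540, mibp, si:dkey-108k21.10, si:ch211-156b7.4, zgc:110425 and CABZ01005379.1, with smallest log2 ratios between 2.41 and 5.68. All 20 genes stayed at least 2-fold higher than every other group in each of the 10 alternatives. They were picked for the largest ratios in these same cells, far above that limit, so this is no independent support.

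**Figure D2:**
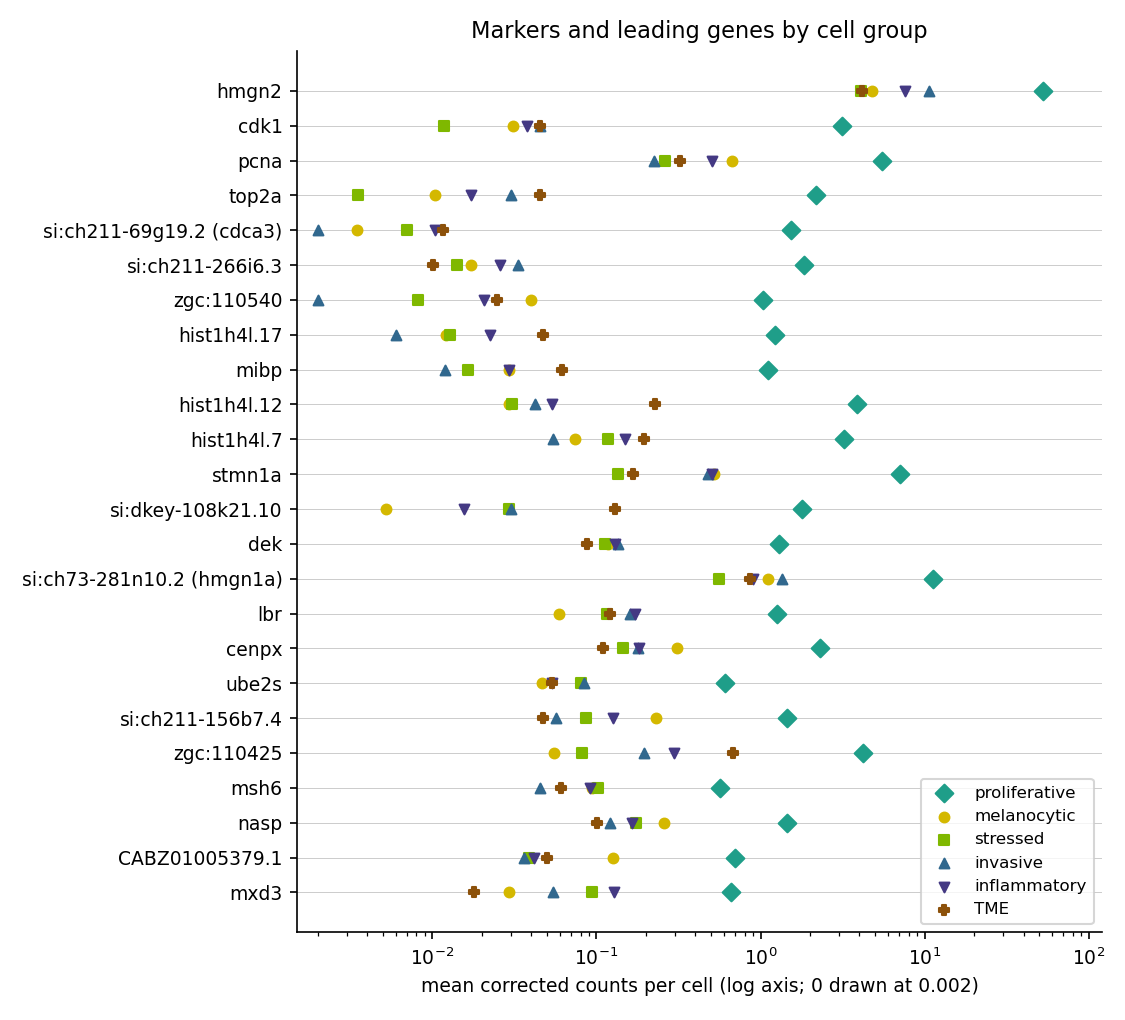
Mean corrected counts per cell (log axis, with 0 drawn at 0.002) of the 4 markers and the 20 leading genes outside the cell cycle lists, with 1 symbol for each of the 6 groups and RefSeq symbols in brackets. The proliferative cells lie to the right of every other group in every line, for example at 7.05 for stmn1a against 0.516 or less.

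Chromatin proteins of the high mobility group (HMG), which bend or loosen packed DNA, were the most abundant of these genes. In the list of HMG proteins and linker or variant histones, 14 of 38 genes were at least 2-fold higher than in each other group and none was lower. Beside hmgn2, the gene hmgb2a averaged 22.9 against 2.68 to 6.36, and hmga1a averaged 6.28 against 0.889 to 1.86. The genes hmgb2b (13.6 against 1.3 to 3.04), si:ch73-1a9.3, named hmgn1b in RefSeq (15.9 against 2.40 to 4.95), and the histone variant gene h2afvb (18 against 2.24 to 5.28) were picked with their values in view. The replacement histone gene h3f3d was the lowest of the list, at 7.88 against 5.67 to 9.79. Enzymes that modify chromatin had 13 of 48 genes higher than in each other group, among them the histone H4 methyltransferase gene kmt5ab (0.348 against 0.00117 to 0.00691), suv39h1b of the heterochromatin methyltransferases (0.288 against 0 to 0.0207) and the remodeler gene hells (1.23 against 0.045 to 0.563).

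DNA repair, nucleotide and nuclear envelope genes followed. Of 33 DNA damage and repair genes tested, 16 were at least 2-fold higher than in each other group, beside 3.7% of all genes tested. The count filter kept 33 of the 63 genes of this list, so that share can be raised by the filter. The recombination genes mus81 and trip13 averaged 0.423 against 0.003 to 0.0147 and 0.312 against 0.0062 to 0.00901. Both were so low elsewhere that they passed the filter mainly through the proliferative cells. The damage recognition gene ddb2 was at 0.0991 against 0.045 to 0.134. In nucleotide and one-carbon metabolism 12 of 47 genes were higher than in each other group. They included tyms, which makes thymidylate (0.862 against 0.0129 to 0.095), and dut, which keeps uracil out of DNA (4.08 against 0.0821 to 0.364). The rest of this list differed by group, with 10 of the 47 genes at least 2-fold lower than in inflammatory cells, beside 11.2% of all genes tested. Of 52 genes of the nuclear envelope, pores and transport, 21 were higher than in each other group. They included the import receptor gene kpna2 (2.29 against 0.015 to 0.0271) and the transport factor gene nutf2l (1.60 against 0.181 to 0.314). The gene kpna2 is also in the cell cycle lists, so this list is not wholly separate from them. Of 47 tubulin and microtubule genes 6 (12.8%) were at least 2-fold higher than in each other group, where 3.7% of all genes tested were. Among them was tubb2b at 3.77 against 0.419 to 0.766. The tubulin gene tuba8l2 was listed at 0 in proliferative cells and averaged 1.08 in TME cells.

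Genes of growth did not set the state apart to that extent. None of 82 ribosome biogenesis genes was at least 2-fold higher than in each other group, and the list's median log2 ratio was 0.12 against stressed and 0.40 against invasive cells, beside 0.08 and 0.04 for all genes. Against inflammatory cells its median was 1.14. Cytoplasmic ribosomal protein genes had medians from -0.15 to 0.41, and none of 85 was 2-fold higher than in every other group. None of 72 translation genes, 49 proteasome genes or 83 nuclear genes of oxidative phosphorylation was either. The respiratory genes had a median log2 ratio of 0.63 against stressed, 0.51 against invasive, 0.89 against inflammatory and 0.09 against melanocytic cells, so the melanocytic cells were nearest to the proliferative cells here. Mitochondrially encoded genes had negative medians in all 5 comparisons, from -0.07 against stressed and invasive to -1.29 against TME cells. Against stressed cells the sign was not stable, with a median of 0.013 at matched depth. Splicing genes were higher by a median of 0.40 to 1.63. Of 86 splicing genes 5 (5.81%) were at least 2-fold higher than in each other group, such as lsm1 at 0.625 against 0.102 to 0.216. Glycolysis genes had medians between -0.42 and 0.33. Of 37 heat shock and chaperone genes 1 (2.70%) was at least 2-fold higher than in each other group. It was the histone-binding co-chaperone gene dnajc9, at 1.01 against 0.0783 to 0.231. The splicing and chaperone shares are near the 3.7% of all genes tested, and nothing is read from these counts.

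**Figure D3:**
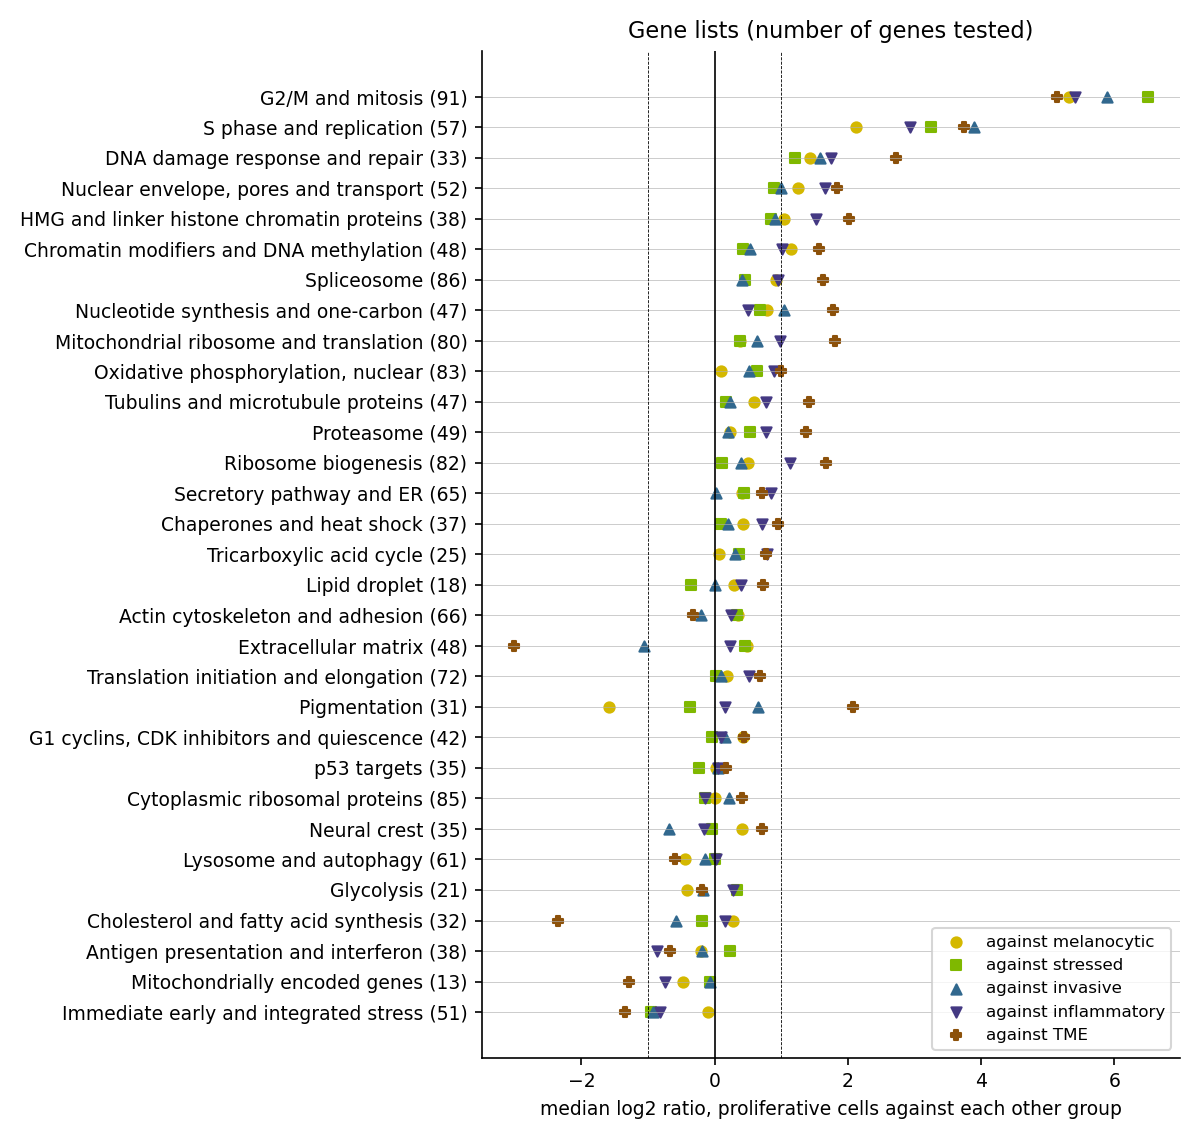
Median log2 ratio of each of the 31 gene lists, proliferative cells against each of the 5 other groups, with the number of genes tested in brackets and dashed lines at 2-fold. The 2 cell cycle lists lie above 2-fold in every comparison, and the immediate early and stress list lies below 0 in every comparison.

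Genes of stress and of the early response to signals were low. The list of immediate early and integrated stress genes had medians of -0.95 against stressed, -0.93 against invasive, -0.82 against inflammatory, -1.35 against TME and -0.11 against melanocytic cells. Of its 51 genes, 24 were at least 2-fold lower than in stressed cells, beside 5.84% of all genes tested. Genes such as fosb and ddit3 mark the stressed state itself, so a lower level in cells not assigned to it is no separate result. At matched depth the medians were -0.44 against stressed, -0.65 against invasive, -0.68 against inflammatory and -0.36 against melanocytic cells. The difference was thus smaller there against stressed, invasive and inflammatory cells and larger against melanocytic cells. The stress transcription factor gene ddit3 averaged 1.78 in proliferative cells, against 7.62 in stressed, 5.37 in inflammatory, 3.48 in invasive and 2.69 in melanocytic cells. At matched depth its log2 ratio was -1.51 against stressed and -0.14 against invasive cells. The early response gene fosb averaged 4.13 against 13.7 in stressed and 5.59 in melanocytic cells. At matched depth its log2 ratio to stressed cells was -1.02, compared with -1.74 over all cells. The co-chaperone gene dnajb1b averaged 0.345 against 1.60 in stressed and 0.326 in melanocytic cells, and its log2 ratio to stressed cells was -2.22 over all cells and -0.90 at matched depth. Over all cells the melanocytic cells were thus the nearest to the proliferative cells in this list, whereas at matched depth the medians against melanocytic and stressed cells were close to each other.

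Few genes were lower than in all other groups, and many of those rest on low counts. Of the 86 genes, 36 were listed at 0 in proliferative cells, and 16 averaged at least 0.05 in each other melanoma state. Only 6 of these 16 were also lower at matched depth. Of the 15 lowest genes named by the rule, 10 were listed at 0 in proliferative cells: tuba8l2, cd59, klf9, si:dkey-192g7.3, hmgcra, slc51a, hcls1, cxcr3.2, klf3 and tnfb. Most of these were mainly TME genes, such as hmgcra, the rate-limiting enzyme of cholesterol synthesis, at 0.535 in TME cells and 0.00518 to 0.0138 in the other melanoma states. The remaining 5 were sik1, igfbp5b, zgc:193505, bcam and slco2b1. The kinase gene sik1 averaged 0.165 against 0.527 to 0.940, and its log2 ratio nearest to 0 was -1.72 over all cells and -1.04 at matched depth. The insulin-like growth factor binding protein gene igfbp5b averaged 0.00601 against 0.0586 to 1.69. The adhesion gene bcam averaged 0.003 against 0.0129 to 0.264 and zgc:193505 averaged 0.003 against 0.0293 to 2.40. The transporter gene slco2b1, at 0.00601 against 0.0207 to 1.51, was no longer lower than melanocytic cells at matched depth, where its ratio to them was 0.38. Named after their values were seen, the glutamine synthetase gene glulb averaged 0.108 against 0.249 to 1.32 and stayed lower at matched depth, with a ratio nearest to 0 of -1.16. The MAP kinase phosphatase gene dusp1 averaged 0.147 against 0.402 to 4.76, but its ratio nearest to 0 at matched depth was -0.88. The water channel gene aqp3a turned from -1.37 against melanocytic cells to 4.08 at matched depth.

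The CDK inhibitor gene cdkn1a averaged 0.553 against 0.015 to 0.173, in animals that are p53-/- by genotype, and cdk2 averaged 0.520 against 0.024 to 0.147. Of the 42 genes of the list of G1 cyclins, CDK inhibitors and quiescence, 6 were at least 2-fold higher than in each other group. The 35 p53 target genes as a list had medians between -0.24 and 0.17. Of them 2 (5.71%), cdkn1a and the translesion polymerase gene polh (0.180 against 0.0397 to 0.0511), were at least 2-fold higher than in each other group. That share is near the 3.7% of all genes tested, and nothing is read from it about the list. Chosen after their values were seen, the telomerase gene tert averaged 0.120 against 0.00862 to 0.0311 and the G1 cyclin gene ccnd1 averaged 0.0871 against 0.0466 to 0.122. The p53 antagonist gene mdm2 averaged 0.135, below its 0.781 in melanocytic cells and close to its 0.123 in invasive and 0.147 in inflammatory cells.

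Pigment, lipid and matrix genes differed from the other groups in a direction that depended on the group. Of 31 pigmentation genes, 22 were at least 2-fold lower than in melanocytic cells, beside 7.88% of all genes tested. Pigment genes such as pmela mark the melanocytic state itself, so a lower level in cells not assigned to it is no separate result. At least 2-fold higher than in invasive cells were 13 of the 31, beside 14.5% of all genes. The melanosome gene pmela averaged 5.68 in proliferative cells, against 41.7 in melanocytic, 3.53 in stressed, 0.748 in invasive and 0.633 in inflammatory cells. None of 18 lipid droplet genes was at least 2-fold higher or lower than in every other group. The triglyceride synthesis gene dgat1a averaged 0.045, against 0.171 in melanocytic, 0.0481 in stressed and 0.00601 to 0.0121 in invasive and inflammatory cells. Cholesterol and fatty acid synthesis genes had a median of -2.35 against TME cells and between -0.58 and 0.28 against the other melanoma states. Extracellular matrix genes had a median of -1.06 against invasive and -3.02 against TME cells, with the matrix protein gene sparc at 0.339 against 8.86 and 10.9. The mesodermal and neural crest regulator gene alx4a averaged 2.08, above its 0.173 to 0.447 in melanocytic, stressed and invasive cells and below its 8.75 in inflammatory cells.

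The 333 cells were not uniform. Summed over the genes of each cell cycle list, the median proliferative cell had 16 S phase counts and 33 G2/M counts, against medians of 1 to 3 and of 1 to 2 in the other groups. Split by these sums, 139 cells had at least 30 cell cycle counts with G2/M at or above S phase, 100 had at least 30 with S phase above G2/M, and 94 had under 30. The sums form a continuous range, and 37 cells lay between 20 and 40 counts. The ranges are cuts along a measure, not types. Their median raw depths were 15201, 18793 and 12270.5 UMIs.

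**Figure D4:**
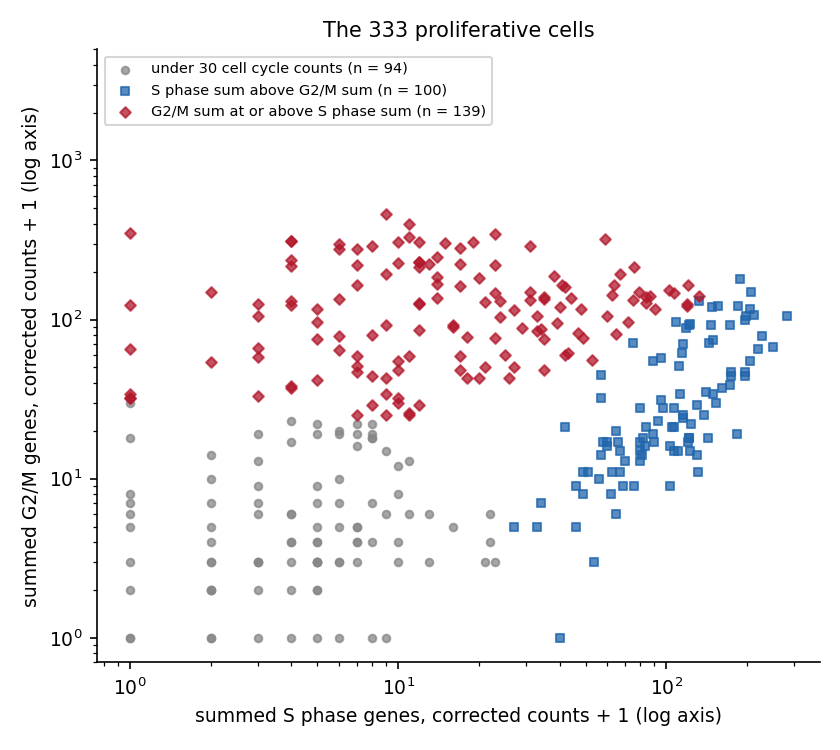
Each of the 333 proliferative cells by its summed corrected counts of S phase genes and of G2/M genes (both + 1, log axes). The cells fall into 139 with G2/M at or above S phase, 100 with S phase above G2/M and 94 with under 30 cell cycle counts, and the ranges adjoin without a gap.

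Chromatin protein genes followed these ranges in different ways. The marker hmgn2 averaged 66.0 in the cells with under 30 cell cycle counts, 20.8 in the S phase range and 66.0 in the G2/M range, so its level was as high in the cells with few cell cycle transcripts as in the mitotic range. The gene si:ch73-1a9.3 (hmgn1b) showed the same order, at 20.2, 6.14 and 20.1, and so did h2afvb, at 21.4, 11.3 and 20.6. In contrast hmgb2a averaged 13.1, 13.4 and 36.4, stmn1a averaged 4.82, 5.01 and 10.0, and si:ch73-281n10.2 (hmgn1a) averaged 6.91, 6.45 and 17.5. These were highest in the G2/M range. The cells with few cell cycle transcripts were assigned to the state from these same genes, with hmgn2 among its markers. Their high hmgn2 level cannot be read apart from that assignment. Outside the genes that define the split, cdkn1a averaged 0.0532, 0.840 and 0.683, and tert averaged 0, 0.340 and 0.0432. The gene tert was above 0 in 30.3% of the S phase range and in 4.51% of the G2/M range, counted over cells with at least 2000 raw UMIs. The level of tert was thus highest in the S phase range.

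The gene lists moved with the ranges too. Against stressed cells, the median of DNA repair genes was 2.02 (log2 ratio) in the S phase range, 0.77 in the G2/M range and -0.05 in the cells with under 30 counts. For nuclear envelope genes these were 1.29, 0.97 and 0.08, and for ribosome biogenesis 0.73, -0.50 and 0.02. The nuclear envelope list shares kpna2 with the cell cycle lists that define the ranges, so its values are partly set by the split. The immediate early and stress list was near -1 in each, at -0.97, -1.01 and -0.96, and nuclear respiratory genes were at 0.69, 0.61 and 0.56. The values of these last lists differed less between the ranges than those of the lists before. Early response and stress genes such as fosb and ddit3 mark the stressed state itself, so a low level in cells not assigned to it is no separate result. These values were not taken at matched depth, where that list's difference from stressed cells was smaller.

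Cell cycle transcripts were also found outside the annotated state, and in the other melanoma states these were mainly those of S phase. A G2/M sum of at least 20 counts was reached by 199 proliferative cells, 22 TME cells and 2 to 8 cells of each other melanoma state. An S phase sum of at least 30 counts was reached by 141 proliferative cells, 54 melanocytic, 29 stressed, 19 inflammatory, 7 invasive and 20 TME cells. With at least 30 counts over both lists, 63 melanocytic, 38 stressed, 27 inflammatory, 13 invasive and 36 TME cells stood beside 239 proliferative cells. The melanocytic ones averaged 19.5 tyrp1b counts and 6.57 hmgn2 counts, the inflammatory ones 46.1 defbl1 and 26.5 hmgn2 counts, and the proliferative ones 0.690, 2.95 and 47.1 of tyrp1b, defbl1 and hmgn2. The genes tyrp1b and defbl1 are markers of the melanocytic and inflammatory states, and the states were made from these same genes. Their levels in cells already assigned to those states are therefore no separate result.

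Markers of the other states appeared in a minority of proliferative cells. The inflammatory markers defbl1 and apoda.1 averaged 2.17 and 2.58, above the 0.132 to 0.271 of the melanocytic, stressed and invasive cells, but 16 of the 333 cells held 88.8% of their summed counts. Those 16 cells had a median of 19686.5 raw UMIs, against 14882 in the rest, and a median of 214 cell cycle counts, against 83. At least 5 counts of the pigment gene tyrp1b were found in 10 cells, and at least 20 counts of the invasive markers krt18a.1 and pdgfbb in 12 cells. The median cell cycle counts of these cells were 141 and 158, each against 93 in the remaining proliferative cells. Together 37 cells carried at least 1 of these sets. Without them, an alternative chosen after seeing the data, 425 genes were higher than in each other group, 418 of them among the 433. With only the 239 cells of at least 30 cell cycle counts, also chosen after seeing the data, 542 were higher, 431 of them among the 433. Scrublet, a doublet caller, called 0 of the 3968 cells. It was run on the depth-corrected counts and not on raw UMIs, so this cannot show that doublets were few. The part of doublets in these cells was not tested.

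The sorted melanoma libraries had no part in choosing the proliferative cells, and they give the only replicated measurement of the genes of this state. The question was how its 100 leading genes, those with the largest smallest log2 ratio, stood in sgDGAT1a against sgNT melanomas. Around the limit of 100, dsn1 and ccnb3 were just inside, with smallest ratios of 3.81 and 3.80, and rrm2 and gtse1 just outside, with 3.78 and 3.77. Of the 100, 90 were matched in the bulk libraries and 88 had a mean of at least 10 normalized counts. By limma over 16969 genes (calls need a Benjamini-Hochberg adjusted p under 0.05 together with a change of over 1 on the log2 scale), 20 of the 88 fell in sgDGAT1a and none rose, where the background was 3.31% of all genes lower and 8.7% higher. At an unadjusted p below 0.05 there were 50 of the 88, beside 5421 of all 16969 genes. The mean was lower in sgDGAT1a for 86 of the 88, where 49% of all genes had a lower mean, with a median log2 fold change of -1.26 beside 0.02 for all genes. All sgDGAT1a libraries lay below all sgNT libraries for 31 of the 88, where 15.9% of all genes did so. The leading genes moved together across libraries, as given below, so these counts of genes are not counts of independent observations. Within each group libraries 1 and 2 were closer to each other (Pearson's r across genes 0.962 and 0.963) than either was to library 3 (0.887 to 0.903). When libraries 1 and 2 of a group were averaged into 1 sample, 0 of the 88 leading genes and 0 of 16987 genes in all were called by limma, so every call and adjusted p given here rests on counting them as separate samples.

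Other gene lists also differed between the same libraries. The extracellular matrix and neural crest lists had medians larger in size than the -1.26 of the leading genes. Extracellular matrix genes had a median log2 fold change of 1.56 with 27 of 51 called higher, neural crest genes 1.52 with 14 of 44 higher, and immediate early and stress genes 0.78 with 14 of 54 higher. Antigen presentation and interferon genes had a median of -0.92 with 14 of 41 called lower. Their part in the difference of the leading genes was not tested. In bulk samples, fewer dividing cells and less of these transcripts per cell cannot be told apart.

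The 3 sgNT libraries differed from each other in the leading genes. Relative to each gene's mean over the 6 libraries, the median level of the leading genes was 1.1 in sgNT 1, 1.14 in sgNT 2 and -0.39 in sgNT 3 on the log2 scale. In sgDGAT1a it was -0.70, -0.94 and -0.20. The sgNT 3 library was below both other sgNT libraries for 87 of the 88 genes, beside 6764 of all 16969 genes. Its median lay within the range of the sgDGAT1a medians. Against sgNT 3 alone the median difference of sgDGAT1a was -0.23, and against sgNT 1 and 2 it was -1.78. Leaving out sgNT 3 gave 71 leading genes called lower, leaving out sgNT 1 or sgNT 2 gave 1 and 2, and leaving out sgDGAT1a 1, 2 or 3 gave 1, 0 and 14. The calls over all genes moved with these: 8.08% of genes were called lower without sgNT 3, 0.305% without sgNT 1, 0.481% without sgNT 2, and 0.439%, 0.166% and 3.08% without sgDGAT1a 1, 2 and 3. The size of the difference thus rests on sgNT 1 and sgNT 2.

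**Figure D5:**
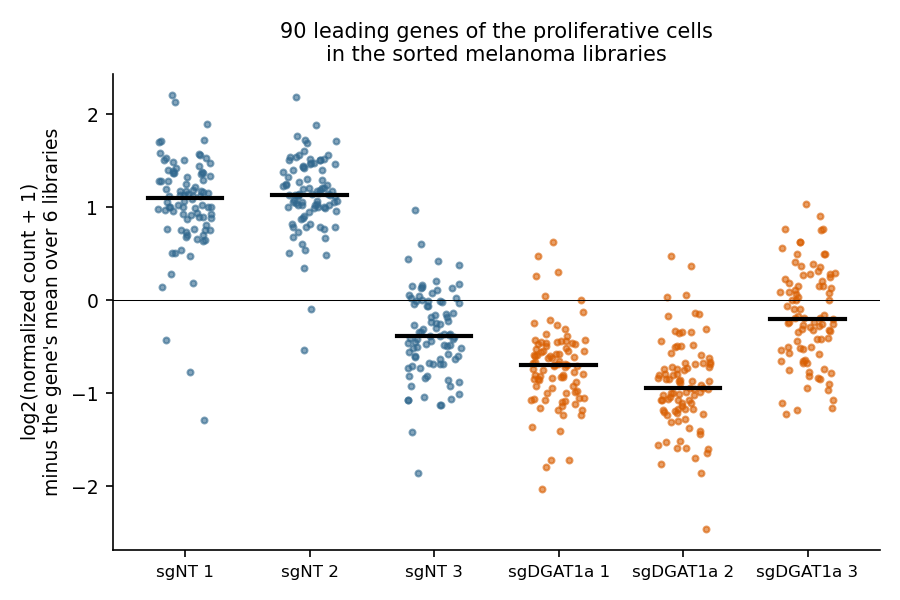
Level of the 90 matched leading genes in each of the 6 sorted melanoma libraries, as log2(normalized count + 1) minus the gene's mean over the libraries, with 1 point a gene and a line at the median. The medians of sgNT 1 and sgNT 2 (1.1 and 1.14) stand above those of sgNT 3 (-0.39) and of the sgDGAT1a libraries (-0.94 to -0.20).

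Single genes show the same division. Normalized counts of hmgn2 were 44737, 51510 and 25125 in sgNT and 16262, 19098 and 23479 in sgDGAT1a. The groups did not overlap, but the log2 fold change of -0.996 ± 0.332 (SE) did not pass the limma test (adjusted p = 0.0813). For pcna the values were 18018, 18809 and 6469 against 6241, 5834 and 8711, with a log2 fold change of -0.93 ± 0.42 (SE, limma adjusted p = 0.167). The groups overlapped through sgNT 3. Neither cdk1 (log2 fold change -0.56 ± 0.55, SE, limma adjusted p = 0.529) nor top2a (-0.65 ± 0.38, SE, limma adjusted p = 0.278) passed the test. The leading genes with the largest changes among those called were si:ch211-266i6.3, si:dkey-25o16.4, ncapd2, cenpn and kif4. For si:ch211-266i6.3, which was also among the leading genes outside the cell cycle lists, the counts were 5606, 5516 and 1260 against 368.5, 334.7 and 674.9, and it fell by 2.95 ± 0.57 (SE, limma adjusted p = 0.0191) on the log2 scale. The condensin subunit gene ncapd2, which helps condense chromosomes, was at 3735, 3146 and 1474 against 530.7, 373.2 and 605.5 and fell by 2.39 ± 0.37 (SE, limma adjusted p = 0.0108). The other 3, si:dkey-25o16.4, the centromere gene cenpn and the mitotic kinesin gene kif4, fell by 2.89, 2.14 and 2.13, with limma adjusted p of 0.0212, 0.0238 and 0.0396. In all 5 the sgNT and sgDGAT1a libraries did not overlap. Over the 14 alternatives, leave-outs included, the call was lost in 2 for ncapd2, 6 for si:ch211-266i6.3, 6 for si:dkey-25o16.4, 7 for kif4 and 8 for cenpn, with no change of direction. The targeted gene dgat1a was at 798.8, 746.8 and 404.5 against 216.5, 230.7 and 240.0 and fell by 1.44 ± 0.32 (SE, limma adjusted p = 0.0265). It was lowest in sgNT 3 among the control libraries as well.

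More G2/M than S phase genes were called lower. Of 112 G2/M genes tested in bulk, all 112 had a lower mean in sgDGAT1a, 21 were called lower and the median log2 fold change was -1.19. Of 66 S phase genes, 55 had a lower mean and 1 was called lower, with a median of -0.48. Over all genes 49% had a lower mean and 3.31% were called lower. Against sgNT 3 alone the medians were -0.25 for G2/M genes and 0.27 for S phase genes, so the S phase direction rests on sgNT 1 and sgNT 2. The difference between these lists was not tested. Of the 24 leading genes outside the cell cycle lists, 22 had a lower mean and 2 were called lower, with a median of -1.08. They include si:ch211-69g19.2 (cdca3), so this set too is not separate from cell division. The HMG list had 24 of 34 genes with a lower mean and a median of -0.21. Its 2 genes called lower, like the 1 of the S phase list, are near or below the share of all genes called lower, and nothing is read from them. The gene si:ch73-281n10.2 (hmgn1a) was at 5735, 6237 and 4125 against 4566, 4453 and 5911, with a log2 fold change of -0.10 ± 0.24 (SE, limma adjusted p = 0.81). The genes of the single-cell state were therefore not uniformly lower, and the groups overlapped for most of them.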

How the data were processed

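The members, gene lists and limits were chosen with earlier results of these data known. For the single cells, the authors aligned reads with CellRanger 6.0.2 and applied SCTransform (Seurat 4.0.2) to correct for depth. The deposited values are whole corrected counts, a score and not a count of molecules, that sum to 5400 to 9687 per cell (raw UMIs 341 to 120384), so no count model or Poisson interval was used. States and the percent of mitochondrial UMIs were taken from the deposited annotation. Ratios used a pseudocount of 0.5 per sum. Sums of raw UMIs had been planned and could not be had. Shares of cells above 0 used cells with at least 2000 raw UMIs. Scrublet (scanpy 1.11.5), run on the corrected counts, called 0 of 3968 cells doublets, so that alternative gave no value.

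For the sorted cells, the authors estimated counts with Salmon 1.4.0 and divided them by DESeq2 1.30.1 size factors. The deposited normalized counts are a signal with decimals, so the depth of each library is unknown. They were tested as log2(normalized count + 1) with limma 3.58.1 (trended prior variance, mean of at least 10, Benjamini-Hochberg). With 3 libraries a group an exact permutation test cannot go below p = 0.1. Nothing in the labels says whether libraries came from separate fish, so p-values measure only the spread between these libraries. Of 20682 lines 280 repeated an identifier and the first was kept. The build was GRCz11 per the labels. Of 11715 genes 10618 matched a RefSeq symbol or synonym, used for names only.

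Genes were named by rule: the 4 markers, the 20 highest and 15 lowest by the ratio nearest to 0 (at least 400 corrected counts, outside the cell cycle lists), up to 3 highest and 1 lowest per list, the state and cell type markers, and in bulk the 5 largest called changes in each direction. Not all genes named by the rule are described. Computations used R 4.3.3, Python 3.11.15, numpy 2.4.6, pandas 2.3.3 and scipy 1.17.1, with figures from matplotlib 3.10.9. Both procedures were tested on simulated data. Results for some items are not reported here.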

Additional observations from a re-analysis of the deposited data

How the results depend on the processing

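The count of genes higher than in each other group was 433, and 358 to 542 under the alternatives except with a minimum of 20 corrected counts (793) or 400 (166), which change the number of genes tested. The count of lower genes was 86, and 7 with a pseudocount of 5, 152 with a minimum of 20 and 39 with a minimum of 400. Some single lower genes changed sign in their ratio nearest to 0. With a pseudocount of 5 this was 0.0824 for si:dkey-192g7.3, 0.21 for hmgcra, 0.21 for slc51a, 0.0825 for hcls1, 0.50 for cxcr3.2 and 0.25 for tnfb, all listed at 0 in proliferative cells. At 8000 to 20000 raw UMIs it was 0.38 for cd59, 0.14 for cxcr3.2, 0.38 for slco2b1 and 4.08 for aqp3a, which was also 1.91 with at least 2000 raw UMIs and 1.54 after thinning to 7000 counts. Of 1550 list medians recomputed, 22 moved by over 1.5 times and no median beyond 2-fold changed sign.

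In bulk, the 20 leading genes called lower became 0 to 71 when 1 library was left out, 3 with the replicate block, 0 with libraries 1 and 2 of each group averaged (the closest pair in each), 8 with a constant prior variance and 2 for leading genes outside the cell cycle lists. The other alternatives gave 19 to 25. Deviations of same-numbered libraries from their group means correlated at -0.0743, -0.0515 and -0.144. With 3 libraries a group, and library 3 apart in both, these values cannot decide whether the numbers are a pairing. The main comparison treated the libraries as unpaired. No leading gene was called higher in any alternative, and the median log2 fold change of the leading genes stayed between -1.78 and -0.87. The cause of these shifts was not tested.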
